A study of Mus musculus with 2 samples.

Results

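The sterol genes described here are 32 mouse genes that make, sense, move, store or export cholesterol. They were taken from a list of gene names, which was chosen with earlier results of these data known. All 32 have probes on the array, 44 in all, and all 32 were measured in both samples, among 14770 named genes measured in both. The samples were whole-embryo RNA of *Dullard*+/- (Dullard-heterozygous) and of *Dullard*-/- (Dullard-homozygous) genotype, of C57BL/6 strain at E7.5, during gastrulation, with 1 sample and 1 single-colour Agilent array per genotype. How many embryos a sample held is not stated. Both samples thus carry a targeted copy of *Dullard* (*Ctdnep1*), which encodes a phosphatase of the nuclear envelope and endoplasmic reticulum. No wild-type sample is among them. The study made a null allele that lacks the whole gene and a *LacZ* allele that lacks part of it, and which of these was on the arrays is not stated. Since each genotype has a single sample, differences have no replicate check, no test was run, and every value describes these samples alone. The RNA came from whole embryos, in which fewer cells of a type and less RNA per cell cannot be told apart.

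Cholesterol is built from acetyl-CoA through mevalonate, isoprenoid diphosphates, squalene and lanosterol. In mammals the genes of this route are switched on together by the transcription factor SREBP2 (*Srebf2*), which is held in the endoplasmic reticulum by its escort SCAP and by INSIG proteins while sterols are plentiful. When sterols accumulate, oxysterols activate the nuclear receptors LXRα (*Nr1h3*) and LXRβ (*Nr1h2*), which induce exporters and a ligase that degrades lipoprotein receptors. In the gastrulating embryo cholesterol is needed for membranes and for the covalent modification of Hedgehog proteins, and the visceral endoderm takes up and passes on maternal lipid.

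The promoters of the members were searched for short motifs around their start sites. In the RefSeq promoter table of the GRCm38.p6 build, which covers 250 bases before to 50 after each start, 26 of the 32 members were matched, with 33 promoters. *Fdps*, *Fdft1*, *Sqle*, *Stard4*, *Npc1* and *Abcg1* were not matched. Motifs were searched on both strands. The CCAAT box (CCAAT), bound by NF-Y, was present in 21 of the 33 promoters (63.64%), against 37.41% of all 32851 promoters in the table. Counted by gene, 15 of the 16 matched synthesis genes had it in a promoter, against 41.06% of all 27025 genes in the table. The GC box (GGGCGG), bound by Sp1, was present in 25 (75.76%), against 35.66% of all promoters. NF-Y and Sp1 are known partners of SREBP2. The letters TCACNCCAC, a common form of the SREBP element, were present in the promoter of *Hmgcs1* alone, against 1.24% of all promoters. The E box CACGTG was in 7 (21.21%), against 7.15%, and AGGTCA, the core of nuclear receptor sites, in 5 (15.15%), against 16.26%. These are counts of letters and do not show that a factor binds there.

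The promoters of 5 members, each as the 150 bases upstream of the start, are given here for genes on which the results turn. *Hmgcs1* carries the only TCACNCCAC among the members, *Idi1* is an enzyme of the mevalonate steps with a pair of CCAAT boxes, *Hsd17b7* and *Sc5d* had the lowest log2 fold changes of the synthesis enzymes, and *Abca1* was the only member past 1.5-fold. Capitals mark the SREBP element, the CCAAT box, the GC box and the E box on either strand, and none of these overlapped in these stretches.
Hmgcs1, chr13:119690201-119690350, plus strand: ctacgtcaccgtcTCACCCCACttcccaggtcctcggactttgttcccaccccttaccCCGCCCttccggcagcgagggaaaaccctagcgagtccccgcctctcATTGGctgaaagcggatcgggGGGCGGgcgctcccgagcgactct
Idi1, chr13:8885456-8885605, plus strand: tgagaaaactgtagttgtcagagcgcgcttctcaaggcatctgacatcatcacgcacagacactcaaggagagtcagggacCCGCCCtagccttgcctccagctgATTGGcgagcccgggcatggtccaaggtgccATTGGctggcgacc
Hsd17b7, chr1:169969206-169969355, minus strand: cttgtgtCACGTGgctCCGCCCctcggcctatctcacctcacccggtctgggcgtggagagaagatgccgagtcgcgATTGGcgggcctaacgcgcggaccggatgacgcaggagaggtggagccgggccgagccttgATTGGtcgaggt
Sc5d, chr9:42264301-42264450, minus strand: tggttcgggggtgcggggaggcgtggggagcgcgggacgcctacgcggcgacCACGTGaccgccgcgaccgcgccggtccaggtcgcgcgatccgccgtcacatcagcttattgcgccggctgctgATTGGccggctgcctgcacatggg
Abca1, chr4:53159896-53160045, minus strand: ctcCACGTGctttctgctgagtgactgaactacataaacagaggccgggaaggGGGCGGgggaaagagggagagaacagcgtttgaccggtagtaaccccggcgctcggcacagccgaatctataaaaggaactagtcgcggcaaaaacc
The TCACNCCAC of *Hmgcs1* begins 137 bases upstream of the start and its CCAAT box 45 bases upstream. The CCAAT boxes of *Idi1* begin 45 and 14 bases upstream, those of *Hsd17b7* 73 and 12, and that of *Sc5d* 24. The *Abca1* stretch holds an E box 147 and a GC box 97 bases upstream, and no CCAAT box.

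Signals below are background-subtracted spot intensities as the scanner software gave them, in arbitrary units. A fold or log2 fold change is *Dullard*-/- over *Dullard*+/- after each array was divided by its 75th percentile over all spots that are not controls, 286 for *Dullard*+/- and 264.4 for *Dullard*-/-. A gene's value averages the log2 fold changes of those probes that both arrays measured well above background. The error after ± comes from the scatter (SD) of repeated spots at similar brightness, reduced by the root of the gene's probe number, and leaves out any spread between embryos. Signals of different probes are not compared, since each probe has its own brightness. No member probe was saturated or had an outlier mark. The *Dullard* probe gave 672.0 and 144.1 (log2 fold change -2.11 ± 0.06), but where it lies relative to the part a *LacZ* allele lacks is not known here. All 8 epiblast markers, all 15 visceral endoderm markers with a probe and 10 of 11 trophoblast markers were well above background in both samples. Over all genes measured in both samples, 3.92% were at least 1.5-fold higher in *Dullard*-/- and 3.37% at least 1.5-fold lower. The summed scaled signal of the visceral endoderm list was 171.6 in *Dullard*+/- and 165.5 in *Dullard*-/-, with 2 of its genes, *Gata4* and *Foxa2*, at least 1.5-fold higher in *Dullard*-/-. That of the epiblast list was 612.5 and 664.4, with 3 of its 8 genes at least 1.5-fold higher in *Dullard*-/-. Most of this epiblast sum is the *Nanog* probe, at 152874.5 and 150047.9 before scaling, so it says little of the other genes. The trophoblast list summed to 14.8 and 17.1, with *Prl3d1* at least 1.5-fold higher and *Ascl2* and *Plac1* at least 1.5-fold lower. Of the 10 decidua markers, 7 were well above background in both samples and 3, the decidual *Prl8a2* among them, in neither, and the list summed to 5.49 and 5.04 with none past 1.5-fold. The blood list summed to 3.16 and 1.29. The adult globins *Hbb-bs* and *Hbb-bt* and the embryonic globin *Hbb-y* were well above background only in *Dullard*+/-. All 4 blood genes measured in both samples were at least 1.5-fold lower in *Dullard*-/-. Their log2 fold changes were -2.08 for *Hbb-bh1*, -1.30 for *Gata1*, -0.95 for *Hba-a1* and -0.61 for *Alas2*. *Xist* was well above background only in *Dullard*+/-, at 344.5 and 634.2 on its probes, while the Y-linked *Ddx3y*, *Eif2s3y*, *Kdm5d* and *Uty* were so in both samples. In *Dullard*-/-, *Eif2s3y*, *Uty* and *Ddx3y* were higher (log2 fold changes 1.21, 0.86 and 0.68) and the dim *Kdm5d* lower (-0.56). The part of these differences in the values of the sterol genes was not tested.

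Most sterol genes, like most genes measured, differed little between the samples. Of the 32 genes, 31 (96.9%) lay within 1.5-fold, as did 92.7% of all genes. *Abca1* was the only gene at least 1.5-fold higher in *Dullard*-/-, where 3.92% of all genes were, and 0 members were at least 1.5-fold lower, where 3.37% of all genes were. No member differed by 2-fold in either direction, as did 1.66% of all genes. The median log2 fold change of the 32 genes was 0.04, beside 0.01 over all genes, and its lowest and highest members were at -0.50 and 0.73. Above 0 were 18 members and below it 14, but without scaling between the arrays 13 were above and 19 below. Without scaling, the shares of all genes at least 1.5-fold higher and lower were 2.63% and 5.29%. The median size of the log2 fold change, regardless of direction, was 0.15 for the members and 0.15 for all genes. The size went with brightness. With all genes split into 4 equal classes by signal, 17.6% of the dimmest class and 0.867% of the brightest lay past 1.5-fold. The classes held 2, 13, 8 and 9 members from dim to bright. The median size of the members in these classes was 0.18, 0.30, 0.16 and 0.12. That of all genes was 0.26, 0.18, 0.13 and 0.09. The median of the members was thus the larger in all but the dimmest class, on few members per class and without a test.

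**Figure D1:**
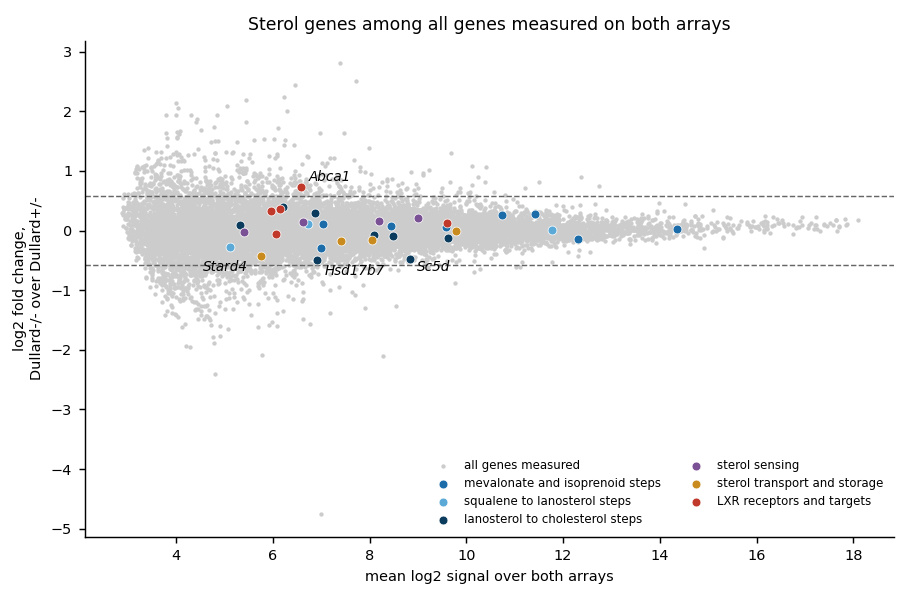
The vertical axis is the log2 fold change of Dullard-/- over Dullard+/- and the horizontal axis the mean signal, for 14770 genes measured on both arrays, with 1 sample per genotype. Coloured points are the 32 sterol genes by role, and dashed lines mark 1.5-fold; *Abca1*, at 0.73, is the only sterol gene outside them.

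The genes of the mevalonate and isoprenoid steps had a median log2 fold change of 0.07, with 6 of 8 above 0 and none past 1.5-fold. Without scaling the median was -0.04. *Acat2*, which joins acetyl-CoA units, gave 21618 in *Dullard*+/- and 20324 in *Dullard*-/-, a log2 fold change of 0.02 ± 0.04. *Hmgcs1*, which makes HMG-CoA, gave 2574 and 2897, at 0.28 ± 0.04, and was at 0.17 both without scaling and with normexp. Both differed between the samples by 1.22-fold or less.

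*Mvk* and *Pmvk*, the kinases that phosphorylate mevalonate in turn, have 2 probes each. The *Mvk* probes gave 151.7 and 138.2, and 115.3 and 126.6, on either side of 0, with a mean log2 fold change of 0.11 ± 0.06. The *Pmvk* probes gave 2490 and 3088, and 1036 and 1036, with a mean of 0.27 ± 0.03. Both *Pmvk* probes were higher in *Dullard*-/- after scaling, by 1.34-fold and 1.08-fold. *Pmvk* was at 0.42 with the brighter probe alone and at 0.16 without scaling.

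*Mvd*, which makes isopentenyl diphosphate, gave 350.7 and 342.7 (0.08 ± 0.06). *Idi1*, the isomerase that balances the isoprenoid building blocks, gave 5558 and 4687 (-0.13 ± 0.04), and *Fdps*, the farnesyl diphosphate synthase, 775.8 and 748.0 (0.06 ± 0.05). *Ggps1*, which leads away from sterols to the geranylgeranyl diphosphate used for protein prenylation, was the lowest of the group. Its probes gave 255.3 and 211.0, and 85.6 and 58.4, with a mean of -0.30 ± 0.06. *Ggps1* was thus 1.23-fold lower in *Dullard*-/-, with both probes on that side, and at -0.16 with the brighter probe alone.

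The 3 enzymes from farnesyl diphosphate to lanosterol had a median log2 fold change of 0.01, and -0.10 without scaling. *Fdft1* (squalene synthase) had a bright probe at 550.4 and 469.2 and a dim one at 20.5 and 24.1. They went apart, with folds of 0.922 and 1.27, and their mean log2 fold change was 0.12 ± 0.11. *Sqle*, the epoxidase that is another control point of the route, gave 3600 and 3360, a log2 fold change of 0.01 ± 0.04. *Lss*, which closes the ring of lanosterol, gave 39.7 and 30.2, at -0.28 ± 0.18. *Lss* is among the dimmest members and has the largest error of all members with 1 probe; with normexp background correction it was at 0.005.

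**Figure D2:**
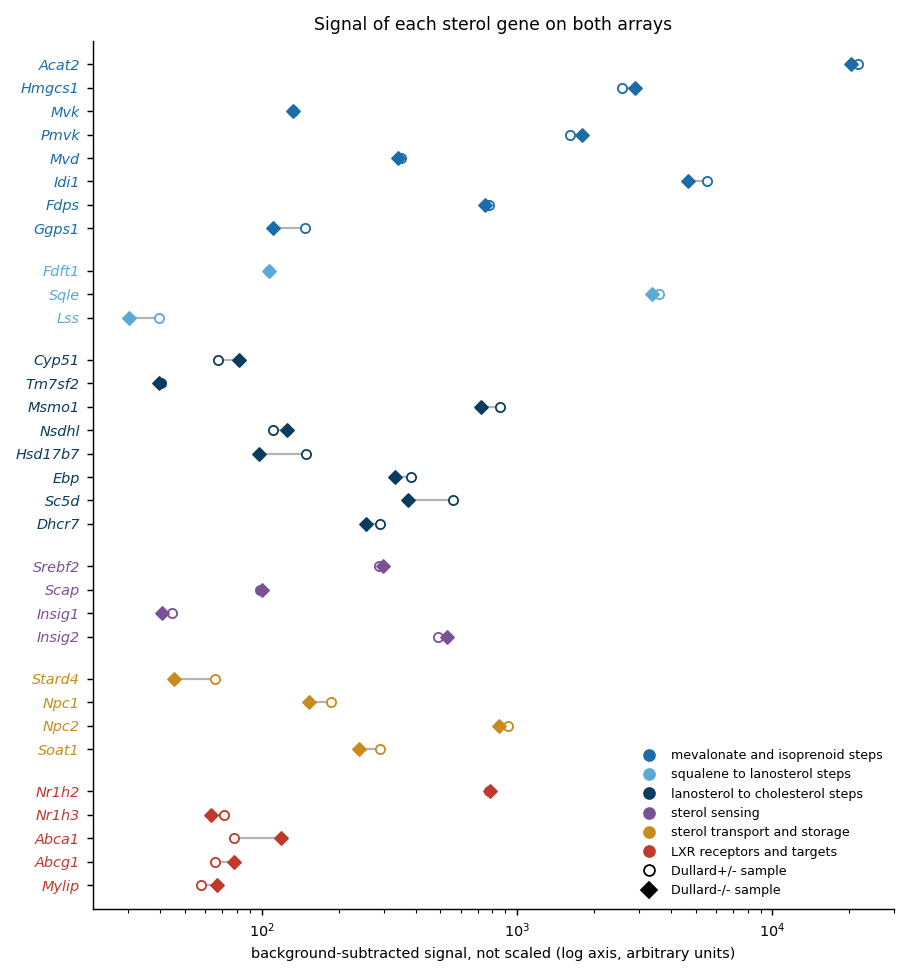
Background-subtracted signal (horizontal log axis, arbitrary units, not scaled between arrays; geometric mean over a gene's measured probes) of each sterol gene in the Dullard+/- sample (open circles) and the Dullard-/- sample (filled diamonds), coloured by role. The 75th percentile of the Dullard+/- array was 1.08 times that of the other, so a diamond slightly left of its circle stands for an equal scaled signal; *Abca1* moves right, from 77.7 to 119.3, and *Sc5d* left, from 561.2 to 372.8.

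The 8 enzymes that turn lanosterol into cholesterol varied most among the synthesis genes, from -0.50 to 0.39, with a median of -0.08 and 5 of 8 below 0. *Cyp51*, the lanosterol demethylase that opens this stretch, gave 67.0 and 81.3 on its probe, a log2 fold change of 0.39 ± 0.10. It was 1.31-fold higher. *Hsd17b7*, the 3-ketosteroid reductase of sterol demethylation, had the lowest value of all 32 members, though *Sc5d* was lower with normexp and *Stard4* with the brightest probe of each gene. Its probes gave 232.6 and 168.3, and 95.9 and 56.8, both lower in *Dullard*-/-, with a mean of -0.50 ± 0.06, or 1.41-fold lower, and -0.29 with normexp. Of all genes measured, 4.76% had a lower log2 fold change. *Sc5d*, the lathosterol 5-desaturase, gave 561.2 and 372.8, a log2 fold change of -0.48 ± 0.06 or 1.39-fold lower, and 5.15% of all genes lay below it. Both are inside 1.5-fold, and both were just past it without scaling, at -0.61 and -0.59, where the median of all genes was -0.10.

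*Msmo1*, the C4-methylsterol oxidase, gave 858.9 and 724.6 (-0.13 ± 0.05). *Nsdhl*, its partner in removing the C4 methyl groups, had a probe at 110.3 and 125.5 (0.30 ± 0.09). A dim *Nsdhl* probe was well above background only in *Dullard*-/-, at 4.73 and 10.5, and its bound was 1.83-fold higher there. The bound sets the signal in *Dullard*-/- against the lowest signal well above background in *Dullard*+/-, each scaled to its array. It leaves out the probe's error, which was 0.50 on the log2 scale. With that probe included without a filter, *Nsdhl* was at 0.78, while it was at 0.19 without scaling and 0.12 with normexp. *Ebp*, the sterol isomerase, gave 384.6 and 333.4 (-0.09 ± 0.06). *Nsdhl* and *Ebp* are the X-linked members, and they lay on opposite sides of 0.

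*Tm7sf2*, a sterol C14-reductase, had probes at 41.6 and 45.7, and at 39.2 and 34.4, with a mean of 0.09 ± 0.11. *Dhcr7*, which makes cholesterol from 7-dehydrocholesterol, gave 291.0 and 256.7 (-0.07 ± 0.07). Each differed by about its error or less.

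Over all 19 synthesis enzymes, 11 were above 0 and 8 below, none was past 1.5-fold, and the median log2 fold change was 0.02. It changed sign with the scaling, at -0.09 without scaling and -0.03 with quantile normalization.

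**Figure D3:**
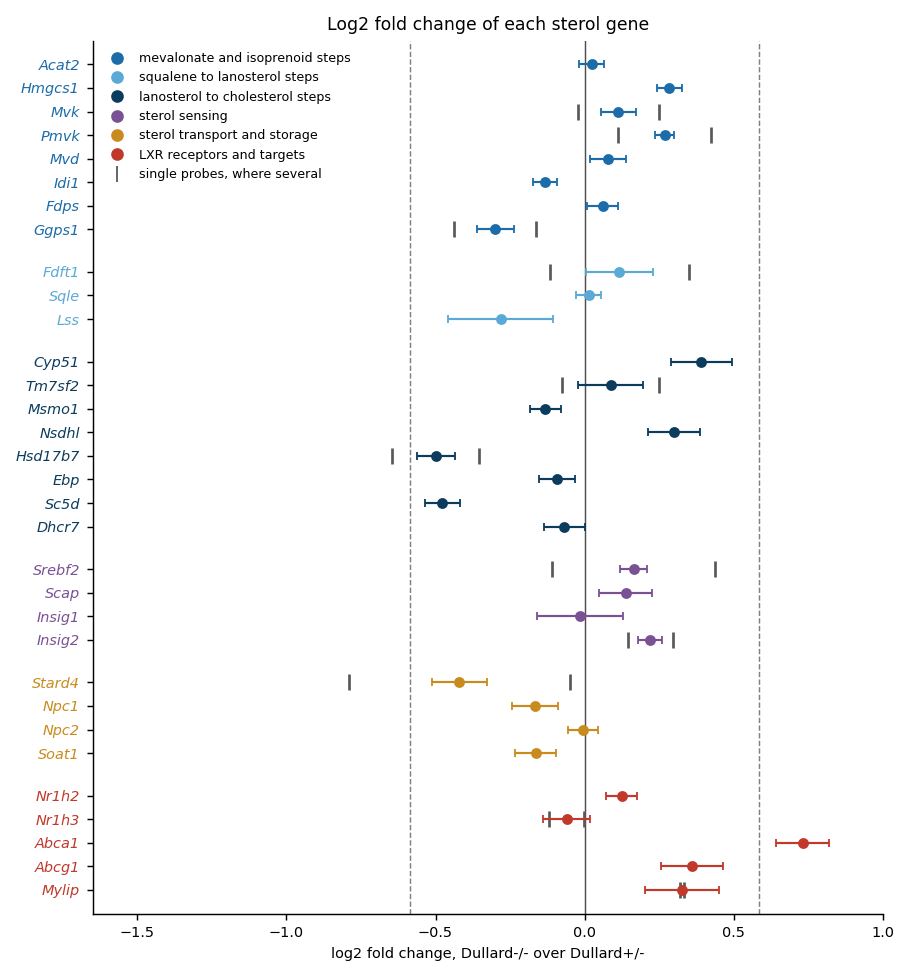
The horizontal axis is the log2 fold change of Dullard-/- over Dullard+/- for the 32 sterol genes, ordered by role, with 1 sample per genotype. Bars are the error from repeated spots described in the text, grey ticks are the single probes of genes with several, and dashed lines mark 1.5-fold; *Abca1* lies at 0.73 and *Hsd17b7* at -0.50.

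The sensors lay close to one another, between -0.02 and 0.22, with 3 of 4 above 0 and a median of 0.15, which was 0.04 without scaling. *Srebf2*, the transcription factor itself, had probes that went apart. The brighter gave 448.8 and 384.7 (0.927-fold) and the dimmer 184.9 and 231.6 (1.35-fold), so the mean of 0.16 ± 0.05 depends on which probe is taken. With the brighter probe alone *Srebf2* was at -0.11.

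*Scap*, the escort, gave 98.4 and 100 (0.14 ± 0.09). *Insig1*, a retention factor that is itself a target of SREBP2, gave 44.4 and 40.7, a log2 fold change of -0.02 ± 0.14. *Insig2*, a retention factor that does not depend on SREBP2 in the same way, has probes for the transcripts NM_178082 and NM_133748. They gave 607.1 and 688.7, and 398.0 and 406.7, and both were higher in *Dullard*-/-, with a mean of 0.22 ± 0.04. *Insig1* was within its error of 0, and *Insig2* was 1.16-fold higher.

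All 4 listed genes of intracellular transport and storage were below 0, where 52.0% of all genes were above it. Their median was -0.17, and none was past 1.5-fold. *Stard4*, a soluble carrier of cholesterol, was the lowest of the 4 at -0.42 ± 0.09, but its probes differed more than those of any other member. One gave 104.2 and 55.7, at 0.578-fold, and the other 41.1 and 36.7, at 0.967-fold. With the brighter probe alone *Stard4* was at -0.79, past 1.5-fold, and with normexp at -0.22.

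*Npc1* and *Npc2*, which release cholesterol from lysosomes, gave 186.4 and 153.6 (-0.17 ± 0.08) and 921.7 and 849.0 (-0.01 ± 0.05). *Soat1*, which esterifies cholesterol for storage, gave 290.1 and 239.4 (-0.16 ± 0.07). *Npc2* changed sign with scaling to the median (0.03) and with normexp (0.01), and the median of the group stayed below 0 under all 8 alternatives tried, between -0.28 and -0.13. That median stayed at -0.17 with dim probes kept, the brightest probe, the mean of linear folds and the processed table. Comparable genes outside this group went both ways. *Stard3* (0.37), *Gramd1b* (0.32), *Gramd1a* (0.28) and *Soat2* (0.25) were above 0. *Stard5* (-0.36), *Gramd1c* (-0.25), *Osbp* (-0.23) and *Npc1l1* (-0.11) were below 0. The shared direction thus describes the listed genes only.

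The LXR arm held the member past 1.5-fold. *Abca1*, which exports cholesterol to apolipoproteins, gave 77.7 in *Dullard*+/- and 119.3 in *Dullard*-/- on its only probe, a scaled fold of 1.66 and a log2 fold change of 0.73 ± 0.09. Of all genes measured, 349 or 2.36% were higher still. *Abca1* stayed past 1.5-fold under all 8 alternatives, between 0.59 and 0.77, where 0.585 is the log2 of 1.5. With 1 probe, it could not move when dim probes were kept or the brightest probe was taken. The same holds for the mean of linear folds and the processed table, all at 0.73. The lowest value, 0.59 with normexp, was close to 0.585. Among the genes in the same class of brightness, 8.18% lay past 1.5-fold in either direction.

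*Abcg1*, an exporter to lipoprotein particles, gave 65.5 and 77.8, a log2 fold change of 0.36 ± 0.10. *Mylip*, also called Idol, is a ubiquitin ligase that acts on lipoprotein receptors. Its bright probe gave 174.4 and 201.1 and its dim one 19.0 and 22.1, with folds of 1.25 and 1.26 and a mean of 0.33 ± 0.12. The 3 LXR targets on the list, which does not hold all LXR targets, were thus all higher in *Dullard*-/-, where 52.0% of all genes were above 0. They stayed above 0 under all 8 alternatives, with *Abcg1* down to 0.15 with normexp and *Mylip* to 0.21 without scaling. *Abcg1* also has 1 probe, so the alternatives that could not move *Abca1* left it at 0.36.

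The receptors themselves lay nearer to 0. *Nr1h2* gave 776.5 and 782.4 (0.12 ± 0.05), and was at 0.01 without scaling. The *Nr1h3* probes gave 90.5 and 83.5, and 56.0 and 47.7, with a mean of -0.06 ± 0.08, within its error. Over the 5 genes of this arm the median log2 fold change was 0.33, which came to 0.21 with unscaled arrays and to 0.15 with normexp.

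**Figure D4:**
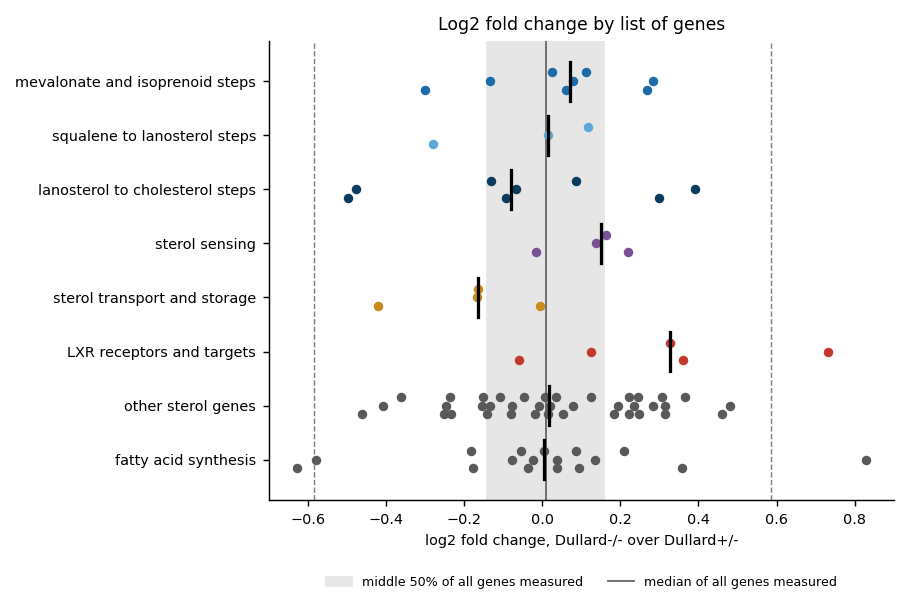
The horizontal axis is the log2 fold change of Dullard-/- over Dullard+/- for each measured gene, by role for the 32 sterol genes and for the other sterol genes and fatty acid synthesis genes. Short black bars are list medians, the grey band is the middle 50% of all genes measured, from -0.14 to 0.16, the grey line their median, and dashed lines mark 1.5-fold; the medians run from -0.17 for transport and storage to 0.33 for the LXR receptors and targets.

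Probes of the same gene give another view of the error. In the 11 members with several measured probes, log2 fold changes of probes of one gene scattered with a pooled SD of 0.26, beside 0.29 over all 3747 such genes. This is larger than the error from repeated spots of every member. In 4 of the 11 (*Mvk*, *Fdft1*, *Tm7sf2* and *Srebf2*) the probes lay on both sides of 0. They differed least in *Mylip*, by 0.02, and most in *Stard4*, by 0.74. The other 21 members rest on 1 measured probe, *Abca1* and *Sc5d* among them.

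Of 44 other genes of sterol metabolism, 38 were measured. None was at least 1.5-fold higher (3.92% of all genes) or lower (3.37%). Their median size of the log2 fold change was 0.21, beside 0.15 for the members and for all genes, with a median log2 fold change of 0.02 and a range from -0.46 to 0.48. Above 0 were 21 and below it 17. Of the rest, 5 were well above background in neither sample: *Cyp27a1* and *Ch25h*, which oxidize cholesterol, *Cyp7b1*, which acts on oxysterols, and *Abcg5* and *Abcg8*, which export sterols from liver and gut cells. *Idi2*, a relative of *Idi1*, was well above background only in *Dullard*+/-. There the bound of its brightest probe, taken as for *Nsdhl*, was 1.47-fold higher, leaving out an error of 0.46 on the log2 scale. *Apoe*, an apolipoprotein that accepts exported cholesterol, gave 23982 and 22465 over 10 spots (0.02 ± 0.04). The highest were *Srebf1*, which drives fatty acid synthesis, at 90.3 and 116.6 (0.48 ± 0.09), and *Acat1*, a mitochondrial thiolase, at 0.46 ± 0.11. The lowest was *Mbtps2*, the X-linked protease that releases SREBPs from the membrane, at 157.3 and 105.7 (-0.46 ± 0.08). Other than *Apoe*, the brightest, the genes of this list were named after their values were seen.

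**Figure D5:**
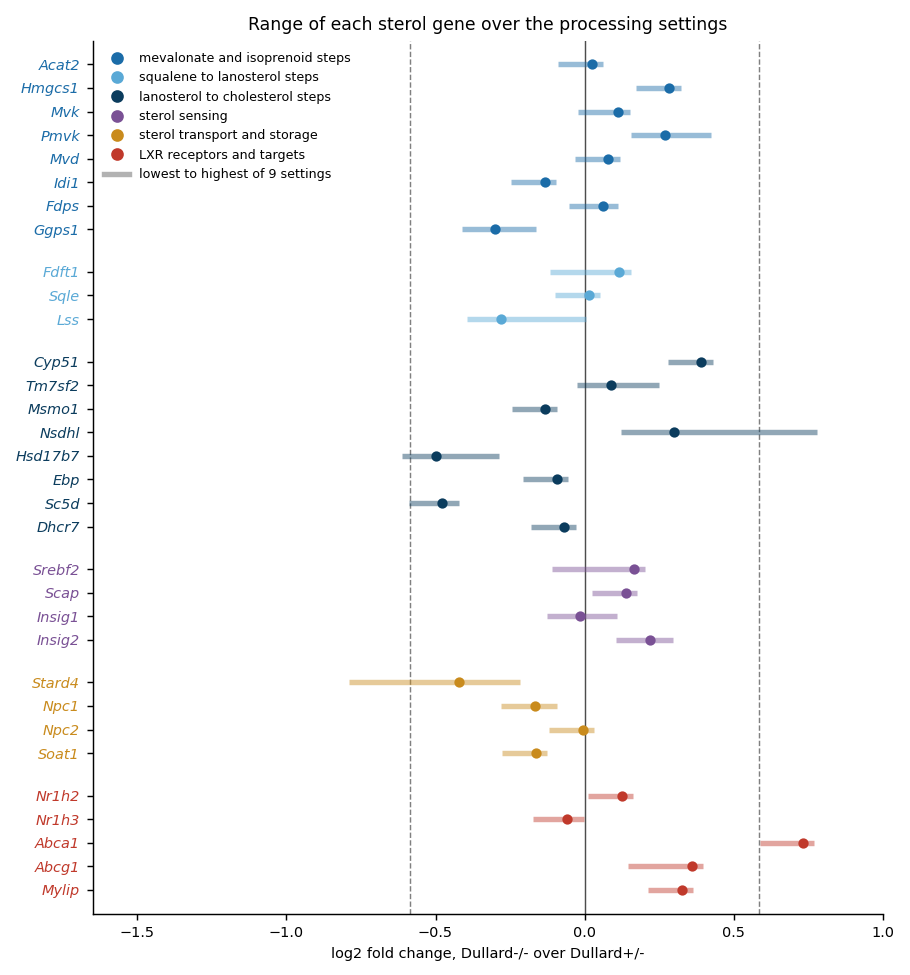
The horizontal axis is the log2 fold change of Dullard-/- over Dullard+/-; bars run from the lowest to the highest value of each sterol gene over the 9 processing settings, with the reported value as a point and dashed lines at 1.5-fold. Of the 32 genes, 10 stay above 0 in all settings, 11 below 0, and 11 change sign; *Abca1* runs from 0.59 to 0.77.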

How the data were processed

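Whole-embryo E7.5 RNA, 1 *Dullard*+/- and 1 *Dullard*-/- sample, was labelled with Cy3 and hybridised to Agilent whole mouse genome arrays, both on the same slide per the file headers. The labels and the methods name different input amounts and amplification kits. The authors deposited spot intensity values from Agilent Feature Extraction 10.10, background-subtracted and not scaled between arrays, and a table of processed intensity values equal to these times 4.91 and 5.20. Its constants are unexplained, and it served as an alternative. Of 43020 spots that are not controls, 31242 (*Dullard*+/-) and 29310 (*Dullard*-/-) were well above background and none was saturated. Precision is limited by having 1 array per genotype.

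Signals were divided by the 75th percentile of their array and put on the log2 scale. The 206 spots with outlier marks were removed, replicate spots were averaged, and probes were named through RefSeq accessions (GRCm38.p6), which named 30235 spots. The coordinates printed belong to the RefSeq promoter table, not to the array. Errors use the 40 replicated probes nearest in signal. Sizes were read at 1.5-fold and 2-fold, with no test. The steps were tested on simulated arrays. By rule all members are named and, of the other lists, genes past 1.5-fold and the 2 brightest. Some genes of those lists are not reported here. The further genes named from those lists were chosen after their values were seen. The members and lists were chosen with earlier results of these data known. Alternatives were no scaling, scaling to the median, quantile normalization, the brightest probe, dim probes kept, the mean of linear folds, the processed table, and limma normexp (offset 50) on median signals. Software was R 4.3.3 with limma 3.58.1, and Python 3.11.15 with pandas 2.3.3 and numpy 2.4.6.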

Additional observations from a re-analysis of the deposited data

How the results depend on the processing

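Without scaling, the median log2 fold change was -0.071 for the 32 sterol genes, -0.089 for the synthesis enzymes, 0.011 for the sensing, transport, storage and LXR genes, -0.096 for the other sterol genes and -0.109 for fatty acid synthesis, where the median of all genes was -0.10. There 2 members, *Hsd17b7* and *Sc5d*, were at least 1.5-fold lower. With the brightest probe of each gene, 1 member (*Stard4*) was at least 1.5-fold lower, and the median of the sensing, transport, storage and LXR genes was -0.0028. Without a filter on dim probes 2 members, *Abca1* and *Nsdhl*, were at least 1.5-fold higher. Past 1.5-fold were 0.636% of all genes upward and 0.223% downward with normexp, whose offset pulls dim genes toward 0 by construction, and 5.99% and 8.56% without the filter. The causes of the other moves were not tested. No paired analysis was possible because each genotype has 1 sample. The dim members (*Lss*, *Insig1*, *Tm7sf2* and the dim probes of *Fdft1*, *Mylip* and *Nsdhl*) have the largest errors, and small differences in them were not detectable on 1 array each.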

Other observations

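Fatty acid synthesis, the other lipid route driven by SREBP factors, also had a median near 0. Of 18 listed genes 17 were measured, with a median log2 fold change of 0.004. *Fasn*, the fatty acid synthase, was the only one at least 1.5-fold higher (3.92% of all genes), at 0.83 ± 0.27, on a dim probe at 12.8 in *Dullard*+/- and 21.0 in *Dullard*-/-. In its class of brightness, the dimmest, 17.6% of all genes lay past 1.5-fold. *Gpam*, which starts glycerolipid synthesis, was the single gene past 1.5-fold in the other direction (3.37% of all genes), at 86.6 and 51.9 (-0.63 ± 0.11). *Fads1*, a desaturase, was just inside that size, at 211.7 and 131.1 (-0.58 ± 0.08). *Scd1* and *Scd2*, which make monounsaturated fatty acids, were at -0.08 ± 0.05 and 0.13 ± 0.04. *Mlxipl*, a carbohydrate-responsive factor, gave 11447 and 10612 (0.004 ± 0.04).

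The side branches that use isoprenoids for other ends went both ways. *Pdss1* and *Pdss2*, which build the tail of coenzyme Q, were at -0.15 ± 0.06 and -0.41 ± 0.10, and *Coq2*, which attaches it, was at 0.19 ± 0.05. *Dhdds*, which makes dolichol for protein glycosylation, was at 0.31 ± 0.05 over 2 probes. *Fntb* and *Pggt1b*, subunits of the enzymes that prenylate proteins, were at -0.14 ± 0.09 and -0.15 ± 0.09. None of these 6 genes was past 1.5-fold, and the *Pdss2* probes differed, at 92.6 and 51.9 and at 39.96 and 34.6.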
